A study of Mus musculus with 12 samples.

Results

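Of the 12 tumors in the series, 9 were labelled as pancreatic, and these 9 were described on their own, without the 3 tumors labelled as arising at the other site. All 9 came from LSL-MYCN;hGFAP-Cre mice and were untreated. In these mice a MYCN transgene lies behind a floxed stop sequence, and Cre is made from the promoter of human GFAP, so that MYCN is switched on in cells that use this promoter and in their descendants. The background was mixed FvB, 129 SvJ and B6. Every tumor carried both transgenes and none was a tumor-free control, so the values below compare tumors with each other only. The sources used here do not say whether any tumors came from the same mouse. Independence of the tumors was assumed and could not be checked. Each p-value holds only under that assumption and measures only the spread between these samples. Tumors are called by their numbers in the labels, which are 1 to 5 and 9 to 12.

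The endocrine pancreas is built of islets, in which each cell type is known by the peptide hormone it secretes. Alpha cells make glucagon, encoded by Gcg, beta cells make insulin and amylin, encoded by Ins1, Ins2 and Iapp, and delta cells make somatostatin, encoded by Sst, a peptide that inhibits the release of many other hormones. Hhex is a homeobox transcription factor on which delta cells depend. Chromogranin A, encoded by Chga, is a protein of the dense core granules in which endocrine cells store hormones. The remaining pancreas is largely acinar tissue, which makes digestive enzymes, and ducts.

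RNA from each tumor was hybridized to 1 Affymetrix mouse array. All values are log2 signals, so that a difference of 1 is a 2-fold difference in signal. Each gene was represented by 1 probe set, the one with the highest mean over the 9 tumors among those assigned to that gene alone, which gave 18193 genes. Signals of different genes depend also on their probes, so an order of genes is an order of signal and not of transcript number. The median signal of an array lay between 5.45 and 5.69 and was used as a reference line, not as a limit of detection.

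The 4 genes that were to mark these tumors were above the array median in all 9. Sst ranged from 13.65 in tumor 2 to 15.10 in tumor 10 with a median of 15.04. Gcg ranged from 8.85 in tumor 2 over a median of 12.82 to 14.41 in tumor 10. Chga ranged from 9.58 in tumor 2 over a median of 13.34 to 13.95 in tumor 1, and Hhex from 10.99 in tumor 2 over a median of 12.21 to 13.10 in tumor 1. Tumor 2 was thus the lowest for each of the 4 genes. The labels name only a pancreatic tumor, and the endocrine character was described by the study. These signals do not test that character, since the 4 genes were chosen beforehand as markers and no other tissue was compared. In tumor 2 the signals of Sst (13.65) and Hhex (10.99) were higher than those of Chga (9.58) and Gcg (8.85).

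Some arrays stood apart from the rest. Pearson correlation across genes between 2 tumors ran from 0.803 for tumors 2 and 5 to 0.985 for tumors 3 and 4. The median correlation of a tumor with the others was 0.860 for tumor 2 and 0.895 for tumor 5, against 0.938 to 0.957 for the other 7. In tumor 5 the 3′ probe set of Actb exceeded its 5′ probe set by 3.48, against 0.57 to 2.08 elsewhere, and the same difference for Gapdh was 2.29, against -0.22 to 0.78. The difference for Actb was lowest in tumors 10, 11 and 12 (0.57 to 0.87), and in 2445 of 18193 genes (13.4%) these 3 tumors lay all above or all below the other 6, with 1084 above and 1361 below. In the 513 genes that differed by more than 2 between tumors 10 and 11, tumor 12 lay between them in 92.4%, whereas each other tumor did so in 52.8% to 66.1%. The part of RNA quality or of array handling in the results below was not tested.

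Sst had the highest signal of all genes in 7 of the 9 tumors and the highest mean, 14.86 ± 0.46 (SD, n = 9). The exceptions were tumor 9, where Iapp was first and Sst second, and tumor 2, where Alb, the gene of serum albumin, was first and Sst ranked 63. Without tumors 2, 3 and 4 the SD of Sst was 0.09. Signals this close to the top of the scale can be compressed, so the SD of Sst need not measure the spread of its transcript. Iapp had a mean of 14.60 ± 0.66 (SD, n = 9), from 12.88 in tumor 2 to 14.99 in tumor 9. Its 4 probe sets had means from 10.09 to 14.60. Gnas, which encodes the alpha subunit of the stimulatory G protein, had 14.08 ± 0.71 (SD, n = 9), again with its lowest value, 12.28, in tumor 2.

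The other 22 of the 25 genes with the highest mean belonged to the translation machinery or its surroundings. Of the 25 genes, 20 encoded ribosomal proteins, and Eef1a1, the elongation factor that brings aminoacyl-tRNA to the ribosome, had 14.53 ± 0.09 (SD, n = 9). Tpt1, which encodes an abundant translationally controlled protein, stayed between 14.50 and 14.70. The 25th gene, Rps7, had a mean of 14.02 and the 26th had 13.98. Over these 25 genes the lowest tumor was tumor 5 for 11 genes and tumor 2 for 10. As a rough reference, of all genes with an SD over 1, 15.7% were lowest in tumor 5 and 35.7% in tumor 2.

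The signal of Gcg ranged more widely than that of Sst, whose spread may be compressed. The rank of Gcg within a tumor ran from 9 in tumor 10 to 4128 in tumor 2, and its SD was 1.68, or 0.92 without tumors 2, 3 and 4. The 150 bases before the start sites of both genes are shown because these peptide hormones mark the tumors (RefSeq, GRCm38.p6, minus strand, 5′ to 3′, Sst at chr16:23890845-23890994 and Gcg at chr2:62483654-62483803). Capitals mark TGACGTCA, the full cyclic AMP response element, in Sst, and the TATA box letters TATAAA in Gcg.
Sst: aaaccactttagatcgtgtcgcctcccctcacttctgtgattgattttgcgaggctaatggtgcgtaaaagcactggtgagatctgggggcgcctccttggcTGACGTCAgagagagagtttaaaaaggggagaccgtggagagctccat
Gcg: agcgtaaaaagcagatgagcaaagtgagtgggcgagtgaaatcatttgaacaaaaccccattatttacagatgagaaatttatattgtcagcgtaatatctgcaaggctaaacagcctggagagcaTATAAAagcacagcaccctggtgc
The motifs were chosen after the values were seen and were searched on both strands in 300 bases around each start, 250 before and 50 after. TGACGTCA was present in 1.79% of all 32851 promoters and in 2.49% of the 18109 promoters of measured genes, and TATAAA in 13.6% and 9.77%. A match is a description of the letters and not a site in use.

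Other hormones of the islet and gut differed between tumors by far more than Sst. Ins2 ranged from 8.08 in tumor 2 over a median of 11.19 to 12.83 in tumor 10, and was almost as low, 8.15, in tumor 11. Pyy, encoding the gut and islet peptide YY, ranged from 6.47 in tumor 11 over 12.78 to 14.29 in tumor 9. Ppy, encoding pancreatic polypeptide, ranged from 7.16 in tumor 2 over 12.00 to 14.21 in tumor 4. Pyy and Ppy were thus near the top of the scale in some tumors and within 2 of the array median in 1 tumor each, whereas Ins2 stayed above 8 in all. Nts, encoding neurotensin, ranged from 5.00 in tumor 11 over 9.54 to 12.64 in tumor 12. Gast, encoding gastrin, showed the opposite order in tumor 11, where it was highest at 11.83, with 10.31 in tumor 12 and a median of 7.55. Cck, encoding cholecystokinin, ranged from 7.86 in tumor 2 over 11.94 to 13.47 in tumor 3.

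Tumor 9 had the highest Npy, encoding neuropeptide Y, at 13.62 against a median of 9.98, and tumor 10 the highest Gal, encoding galanin, at 10.97 against a median of 6.39. Of the 13 measured genes in the list of other islet and gut peptides, 8 had an SD over 1, and 8 still did without tumors 2, 3 and 4. Over all genes 11.5% (2097 of 18193) had an SD over 1, and 5.69% (1035) without these 3 tumors, nearly all of the difference being made by tumor 2, without which there were 1034. Tumor 11 had the lowest signal for 7 of the 13 genes, and for 19.3% of all genes with an SD over 1.

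**Figure D1:**
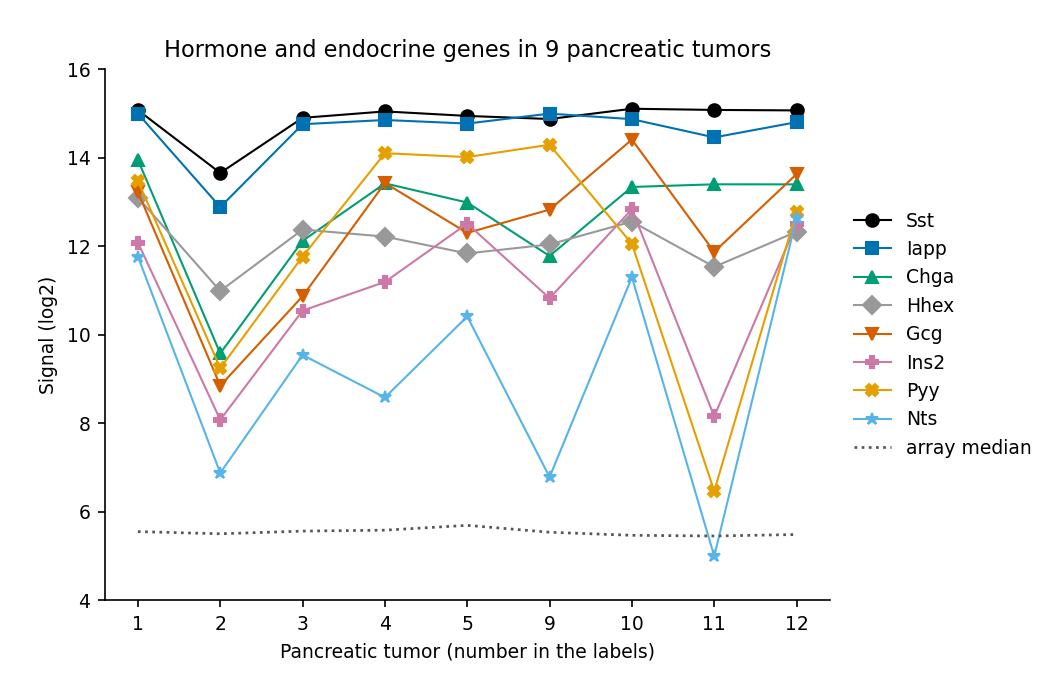
Log2 signal of 8 hormone and endocrine genes in each of the 9 pancreatic tumors, 1 array per tumor, with the median of each array as a dotted line. Sst and Iapp stayed between 12.88 and 15.10, whereas Pyy ranged from 6.47 to 14.29 and Nts from 5.00 to 12.64. Lines join the values of a gene and carry no order of tumors.

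The genes that varied least were taken from the 9927 genes above the array median in all 9 tumors, in 3 bands of mean signal, since the SD depends on the level. In the band of 12 and above (274 genes, median SD 0.37) the 10 lowest SDs belonged to Tpt1, Rpl13a, Rps2, Rps29, Eef1a1, Rpl38, Rpl22, Rpl37a, Rps7 and Ssr3, most of them also among the 25 highest. Rpl13a had 14.16 ± 0.07 and Ssr3, a subunit of the complex at the translocon of the endoplasmic reticulum, had 12.07 ± 0.12 (SD, n = 9). In the band from 9 to below 12 (3040 genes, median SD 0.53) the 10 were Ppp2r2d, Pmpca, Pdzd11, Sbf2, Bcl2l1, Dctn2, Bccip, Sap30l, Ift46 and Eef1d. Ppp2r2d, a regulatory subunit of protein phosphatase 2A, had 9.32 ± 0.07, and Pmpca, a subunit of the mitochondrial processing peptidase, had 9.47 ± 0.10 (SD, n = 9). Bcl2l1 encodes the survival protein Bcl-xL and Dctn2 a subunit of dynactin.

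Below 9 (6613 genes, median SD 0.49) the 10 were Sptlc3, Ulk3, Abcb9, Pou3f2, Ly6g6c, Cadm3, Wnt7b, Dennd4b, H2-T3 and Guca1b, of which Sptlc3 had 6.42 ± 0.04 (SD, n = 9). Wnt7b had the highest mean of these, 7.20. A signal so near the array median can be flat because little of the transcript is present. The last gene inside and the first outside each list had SDs of 0.092 and 0.093 below 9, 0.136 and 0.136 from 9 to 12, and 0.116 and 0.116 above. Genes commonly used as references were not uniformly stable. Of 11, all were above the array median in every tumor with a median SD of 0.42. Actb had 13.07 ± 0.22, but Tfrc, the transferrin receptor, had an SD of 1.27 and Sdha, a subunit of succinate dehydrogenase, 0.64 (n = 9). Tumor 5, in which the 3′ excess was largest, was the lowest for 7 of the 11, and for 15.7% of all genes with an SD over 1.

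**Figure D2:**
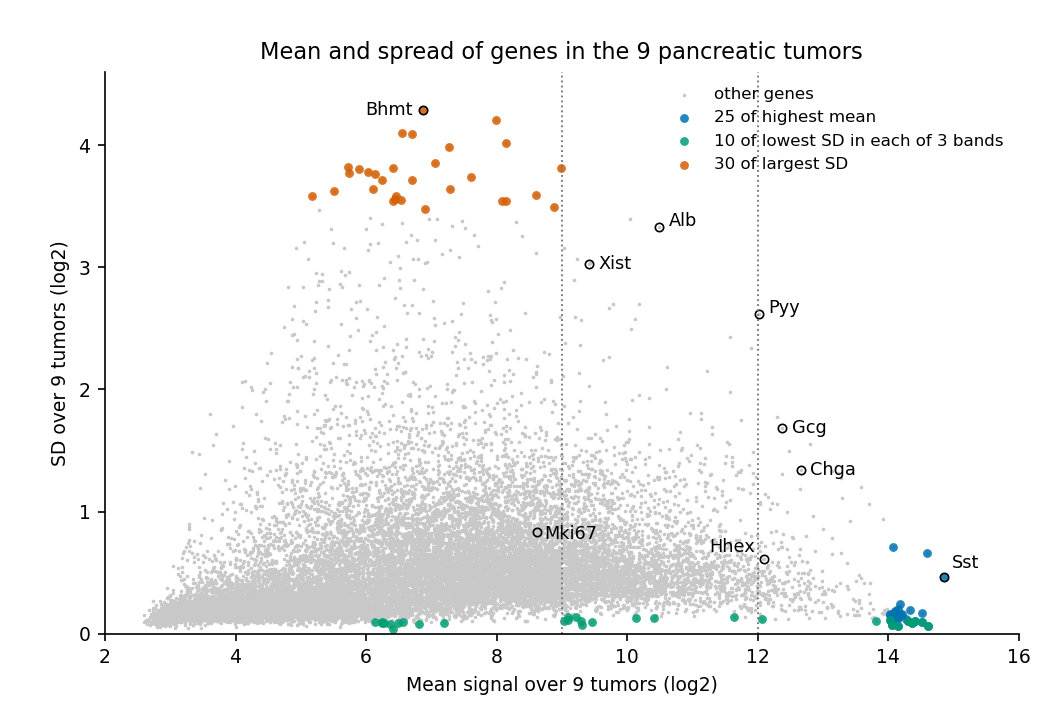
Mean log2 signal over the 9 tumors against the SD over the 9 tumors for 18193 genes, 1 point per gene, with the bands of the stable genes marked by dotted lines at 9 and 12. Sst had the highest mean (14.86) with an SD of 0.46, and Bhmt the largest SD (4.29).

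The median SD over all genes was 0.43, or 0.38 without tumors 2, 3 and 4. Most of the genes with the largest SD were those of liver. Of the 30 largest, 27 were highest in tumor 2, and 29 of the 30 were second in tumor 4. They were Bhmt, Hpx, Fga, Cps1, Cyp3a11, Fgg, Serpinc1, Ugt2b5, Pzp, Car3, Hsd17b13, Otc, Cyp3a25, Rdh7, Apoh, Fabp1, Cyp2f2, Acaa1b, Plg, Prss3, Apoa1, Mug1, Kng1, H2-Q10, Orm1, Apoc1, Reg3b, Aldh1a7, 2210010C04Rik and Akr1c6. They hold plasma proteins, among them fibrinogen chains (Fga, Fgg), hemopexin (Hpx), antithrombin (Serpinc1) and plasminogen (Plg), and enzymes of the urea cycle (Cps1, Otc) and of drug metabolism (Cyp3a11, Ugt2b5). The 3 that were highest in tumor 3 were Prss3 and 2210010C04Rik, which belong to the trypsinogens, and Reg3b, a secreted lectin of the exocrine pancreas and gut. The 30th and 31st SDs were both 3.47. The study observed involvement of the liver in some animals with abdominal tumors. The sources used here do not say which arrays came from them, and its part in these values was not tested.

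Bhmt, an enzyme that remethylates homocysteine in liver, ranged from 3.39 in tumor 5 over a median of 4.45 to 14.42 in tumor 2, with 11.20 in tumor 3 and 11.75 in tumor 4. Cps1, the first enzyme of the urea cycle, ranged from 3.72 in tumor 12 over 4.12 to 14.06 in tumor 2. The other 6 tumors had both genes close to or below the array median, and the SD without tumors 2, 3 and 4 was 0.40 for Bhmt and 0.19 for Cps1. Alb behaved otherwise. It was 15.01 in tumor 2, 13.65 in tumor 4 and 13.42 in tumor 3, but also 12.28 in tumor 11 and 11.01 in tumor 12, and its lowest value was 6.22 in tumor 10. Its SD without tumors 2, 3 and 4 was still 2.49.

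Of the 17 measured genes of the hepatocyte list, 16 were highest in tumor 2, against 39.9% of all genes with an SD over 1. In the list 16 had an SD over 1, against 11 without tumors 2, 3 and 4. The exception was Rbp4, a retinol carrier, which the delta cell list also holds and which stayed between 12.95 and 14.38. Over the 15 genes of the list with an SD over 2, tumor 2 exceeded tumor 3 by 1.59 (Alb) to 3.83 (Ahsg) with a median of 2.88, and tumor 4 exceeded tumor 3 by 0.05 (Hpx) to 0.55 (Fgb) with a median of 0.32. Tumors 3 and 4 thus differed little in these genes, and tumor 2 stood above both. Between tumors 11 and 10 the differences of the same genes ran from -1.73 (Cyp2e1) to 6.06 (Alb), and 10 of 15 were positive. In a bulk sample, fewer cells of a type and less RNA per cell cannot be told apart, here and in all comparisons that follow.

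The promoter of Alb is shown because this gene varied both with and without the 3 tumors (RefSeq, GRCm38.p6, plus strand, chr5:90460720-90460869). Capitals mark GTTAAT, the core letters of the site for the liver factor HNF1.
Alb: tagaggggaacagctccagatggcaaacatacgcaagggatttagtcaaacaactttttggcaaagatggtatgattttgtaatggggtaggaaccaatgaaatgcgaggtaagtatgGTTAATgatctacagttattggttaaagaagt
GTTAAT was present on either strand in 7.10% of all promoters, 5.30% of those of measured genes and 23.5% of the 17 promoters of the hepatocyte list, and TATAAA in 41.2% of these 17.

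Genes of the exocrine pancreas formed another pattern. Cela3b, an elastase, ranged from 4.95 in tumor 9 over a median of 10.84 to 13.92 in tumor 3. Cpa1, carboxypeptidase A1, ranged from 5.05 in tumor 2 over 7.65 to 12.30 in tumor 3. Zg16, a protein of zymogen granules, ranged from 5.41 in tumor 9 over 9.68 to 13.14 in tumor 3. Acinar genes were therefore highest in tumor 3 and lowest in tumors 1, 2 and 9, so that tumor 2, which had the most hepatocyte transcripts, had among the fewest acinar ones.

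Of the 23 measured genes in the acinar list, 19 were highest in tumor 3, against 9.20% of all genes with an SD over 1. In the list 17 had an SD over 1, against 12 without tumors 2, 3 and 4. Over the 14 genes with an SD over 2, tumor 3 exceeded tumor 4 by 0.10 (Amy1) to 1.26 (Cpa1) with a median of 0.93. Tumor 3 exceeded tumor 10 by 0.09 (Zg16) to 4.85 (Reg1) with a median of 3.04. Amy1, a salivary type amylase gene that is also transcribed in mouse liver, went with the liver genes, since it was highest in tumor 2 at 11.50 and had a median of 3.86. Cckar, the receptor by which cholecystokinin acts on acinar cells, was 6.91 in tumor 3 and 5.55 in tumor 4, with a median of 3.58, and its SD without tumors 2, 3 and 4 was 0.42.

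**Figure D3:**
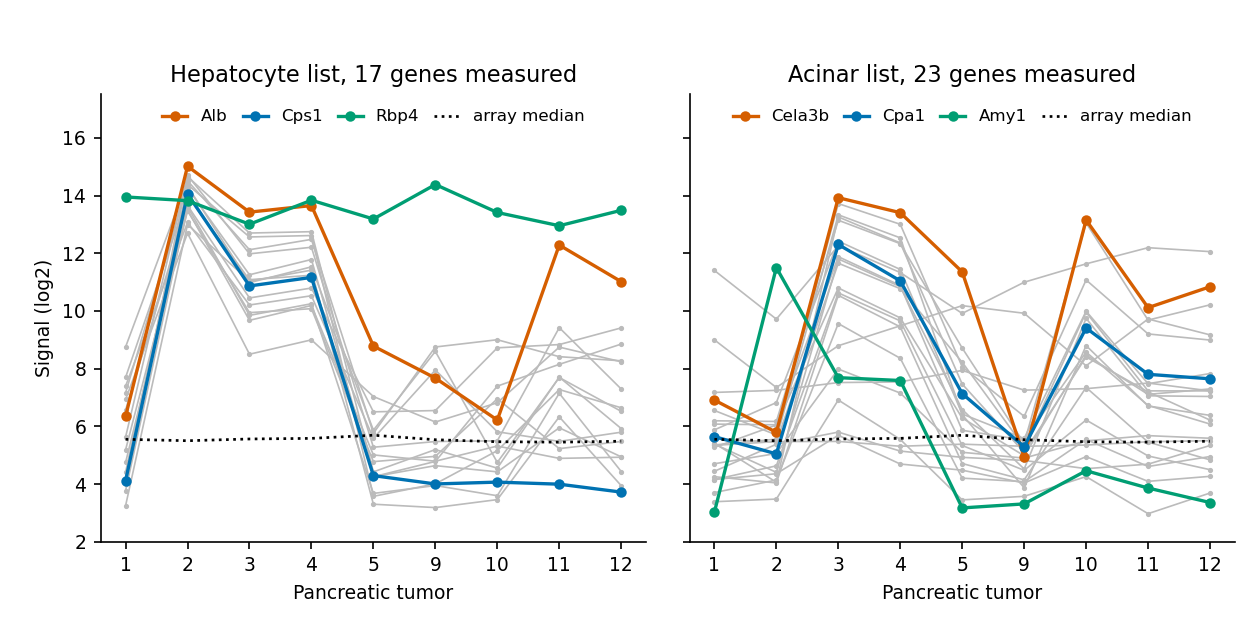
Log2 signal of the 17 measured genes of the hepatocyte list (left) and the 23 of the acinar list (right) in each of the 9 tumors. Grey lines are single genes, coloured lines are named genes and the dotted line is the array median. Hepatocyte genes peaked in tumor 2, where Alb reached 15.01, and acinar genes in tumor 3, where Cela3b reached 13.92.

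Many endocrine genes were lowest in tumor 2. Of all genes with an SD over 1, 35.7% were lowest and 39.9% highest in this tumor. Counts by tumor cover all measured genes of a list whatever their SD, so such shares are only a rough reference. A count near its share says nothing particular about a list. Of the 19 measured genes of neuroendocrine secretion, 17 were lowest in tumor 2, and 18 had an SD over 1, against 3 without tumors 2, 3 and 4. Scg2, a granin, ranged from 10.69 in tumor 2 over a median of 14.02 to 14.43 in tumor 9, and Chgb, chromogranin B, from 11.59 in tumor 2 over 14.07 to 14.75 in tumor 1. Resp18, a protein of secretory granules, kept its spread without the 3 tumors, with 7.04 in tumor 11, a median of 13.03 and 14.17 in tumor 1. Of the 14 endocrine transcription factors, 8 were lowest in tumor 2 and 9 had an SD over 1, against 2 without the 3 tumors. One of these was Nkx2-2, a homeobox factor of islet cells, which was 4.16 in tumor 9 and 4.25 in tumor 11 but 10.13 in tumor 10, with a median of 8.55.

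When tumors 2, 3 and 4 were left out, only 3 of the 30 genes with the largest SD were shared with those in all 9 (Reg3b, 2210010C04Rik and Car3). The largest SDs were those of Xist (3.11), Nts (3.05), Cela3b (3.04), Pyy (2.91) and Zg16 (2.79). Xist, the RNA that coats the inactive X chromosome, was 5.39 in tumor 1, 5.61 in tumor 11 and 5.87 in tumor 2, against a median of 10.45 and 13.34 in tumor 5. The Y-linked gene Uty ran in the opposite order, with 8.36 in tumor 2, 8.28 in tumor 1, 6.68 in tumor 11 and a median of 3.98. Tumor 12 held an intermediate value of Xist, 9.74, with 4.50 for Uty. Genes that go with the sex of an animal therefore counted among the most variable.

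Single tumors stood out for sets of genes of other cells. In tumor 10, Ighm, the heavy chain of immunoglobulin M, was highest at 12.02, with 11.92 in tumor 12, a median of 7.20 and 6.30 in tumor 1. Jchain, which joins the units of secreted antibodies, was 10.47 in tumor 10 against a median of 5.65. Adipoq, the adipocyte hormone adiponectin, was 8.54 in tumor 10 and 6.96 in tumor 12 against a median of 3.56. Dcn, the connective tissue proteoglycan decorin, was 12.04 in tumor 10 against a median of 7.52 and 5.91 in tumor 11. Tumor 10 was thus the highest of the 9 for each of these 4 genes, although the connective tissue list as a whole scored highest in tumor 5 (0.87) and lower in tumor 10 (0.39). In tumor 11, Lbp, a lipopolysaccharide binding protein, was 11.82, with 10.50 in tumor 12 and a median of 7.38, and Cfap61, a protein of motile cilia, was 9.86, with 7.95 in tumor 12 and a median of 3.90. Klhl13, a ubiquitin ligase adaptor, was 3.15 in tumor 11 against a median of 9.36.

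Some long RNAs, chosen after their values were seen, were highest in tumor 5. Meg3, a maternally expressed imprinted RNA, was 14.06 there against a median of 10.92, Malat1 14.19 against 11.15, Snhg14 9.56 against 7.26, and Kcnq1ot1 9.30 against 5.96. In the same tumor Cartpt, the neuropeptide precursor CART, was lowest at 5.63 against a median of 9.75, and Bub1, a mitotic checkpoint kinase, was lowest at 3.92 against 6.86. Tumor 5 was the sample with the largest 3′ excess of Actb and Gapdh, and the part of this in its values was not tested.

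Mki67, which encodes the antigen Ki-67, ranged from 6.76 in tumor 10 over a median of 8.70 to 9.49 in tumor 3, with a mean of 8.62 ± 0.84 (SD, n = 9). Top2a, the topoisomerase of dividing cells, ranged from 6.94 in tumor 5 over 8.85 to 9.86 in tumor 11. Of the 25 genes of the proliferation list, 19 were above the array median in all 9 tumors and 8 had an SD over 1, against 7 without tumors 2, 3 and 4. The lowest signal fell in tumor 5 for 12 genes, and the highest in tumor 3 for 9 and in tumor 2 for 8. Among all genes with an SD over 1, 15.7% were lowest in tumor 5. The shares highest in tumors 3 and 2 were 9.20% and 39.9%.

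The genes of the MYC family and their targets had median SDs of 0.44 and 0.41, against 0.43 over all genes. The SD depends on the level. Genes above the array median in every tumor had a median SD of 0.49 below 9 and 0.53 from 9 to 12. Of these genes, 8.18% and 12.6% had an SD over 1. The difference of the lists from these values was not tested. The probe sets are those of mouse genes, so the transgene itself may not be measured by them. Mycn ranged from 6.45 in tumor 1 over a median of 6.71 to 7.14 in tumor 11, and its 3 probe sets had means of 6.82, 4.90 and 4.56. Myc ranged from 4.94 in tumor 1 over 5.42 to 5.85 in tumor 2, around the array median. All 30 MYC target genes were above the array median in every tumor, with a median mean of 10.07. The only one with an SD over 1 was Ldha, lactate dehydrogenase A, which was 8.85 in tumor 1, 11.71 at the median and 12.63 in tumor 3. Odc1, which makes polyamines, ranged from 11.01 to 12.05. None of the 12 genes of the MYC family and its partners had an SD over 1.

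Other genes of interest to the study spanned different ranges. Klk1, a kallikrein, ranged from 7.18 to 7.94, and Klk1b5 from 3.09 to 3.57, below the array median in all 9 tumors. Cdh2, which encodes N-cadherin, ranged from 10.76 in tumor 2 over 11.36 to 12.40 in tumor 1, and Men1, the tumor suppressor menin, from 7.33 over 7.62 to 8.33. Gfap, whose human promoter drives Cre, ranged from 5.67 over 5.87 to 6.32, close to the array median. Aurka, the kinase Aurora A, ranged from 5.77 in tumor 5 over 7.16 to 7.76 in tumor 3.

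Across 35 gene lists, the spread between tumors was far from even. To score a list in a tumor, each gene's mean over the 9 tumors was subtracted from its signal there, and the differences were averaged over the genes. The lists with the largest median SD were hepatocytes (3.33), acinar cells (2.39), the 4 sex-linked transcripts (2.23) and other islet and gut peptides (1.90). Without tumors 2, 3 and 4 the order was sex-linked transcripts (2.21), other islet and gut peptides (1.61), hepatocytes (1.22), beta cells (1.11) and acinar cells (1.10). The hepatocyte score was 5.55 in tumor 2, 3.13 in tumor 4 and 2.78 in tumor 3, and between -2.75 and -0.70 in the others. The acinar score was 3.09 in tumor 3, 2.33 in tumor 4 and 0.86 in tumor 10, and between -1.84 and -0.37 in the others. Neuroendocrine secretion had a median SD of 1.40 with a score of -2.98 in tumor 2.

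The counts of genes with an SD over 1 in the lists below can be read against 11.5% of all genes in the 9 tumors and 5.69% without tumors 2, 3 and 4, and differences between lists were not tested. In the delta cell list, 2 of 7 genes had an SD over 1 (1 without tumors 2, 3 and 4), with a median SD of 0.61. In the alpha cell list 6 of 10 did (5 without the 3 tumors), and in the beta cell list 6 of 9 (5 without them). In the duct list 4 of 12 genes had an SD over 1, and 3 without the 3 tumors. Only 1 of the 7 pituitary hormones did, namely Prl, the gene of prolactin, with 8.22 in tumor 5 and 4.36 to 5.74 elsewhere.

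Among stromal and blood cells, connective tissue had 6 of 18 genes with an SD over 1 (7 without tumors 2, 3 and 4), and 9 of its genes were lowest in tumor 11 and 8 highest in tumor 5. Endothelium had 2 of 13, both with and without the 3 tumors, and smooth muscle 0 of 6, so that in the 9 tumors both were near the share of all genes. The lymphocyte list had 5 of 12, or 6 without the 3 tumors, and 10 of its genes were highest in tumor 10. Macrophages and myeloid cells had 5 of 15 (7 without the 3 tumors), antigen presentation 5 of 11 (5), fat tissue 3 of 7 (2), and red blood cells 4 of 5 (1). Tumor 10 was the highest for 7 of the myeloid, 6 of the antigen presentation and 5 of the fat genes. Among all genes with an SD over 1, 5.77% were highest in tumor 10 and 8.92% in tumor 5, and 19.3% were lowest in tumor 11. Glia had 1 of 7 (0 without the 3 tumors) and neural and sympathoadrenal genes 6 of 17 (3). In this list Th, the first enzyme of catecholamine synthesis, was 12.57 in tumor 10 and 11.67 in tumor 4 against a median of 8.39.

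Among lists of cell processes, the interferon response had 5 of 16 genes with an SD over 1 and 2 without tumors 2, 3 and 4, and 9 of its genes were highest in tumor 2, as was Bst2, the antiviral protein tetherin, at 11.47 against a median of 7.39. Sterol and fatty acid synthesis had 7 of 12 (4), with 9 genes highest in tumor 2. Hypoxia and glycolysis had 7 of 14 (2), with 9 highest in tumor 3, where Slc2a1, the glucose carrier of many tumors, was 11.14 against a median of 8.92 and Adm, encoding adrenomedullin, 9.96 against 6.54. Immediate-early genes had 4 of 15 (2), heat shock 2 of 7 (1), folding in the endoplasmic reticulum 1 of 16 (1), and tumor suppressors and drug targets 2 of 10 (2), one of which was Cdkn1a, the cell cycle inhibitor p21, from 8.82 in tumor 1 to 12.18 in tumor 11. Imprinted genes had 9 of 13 (5), with 6 lowest in tumor 2. Of all genes with an SD over 1, 39.9% were highest and 35.7% lowest in tumor 2, and 9.20% were highest in tumor 3. Reference genes had 1 of 11 (1), and neither the 12 ribosomal proteins nor the 14 genes of oxidative phosphorylation had any.

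**Figure D4:**
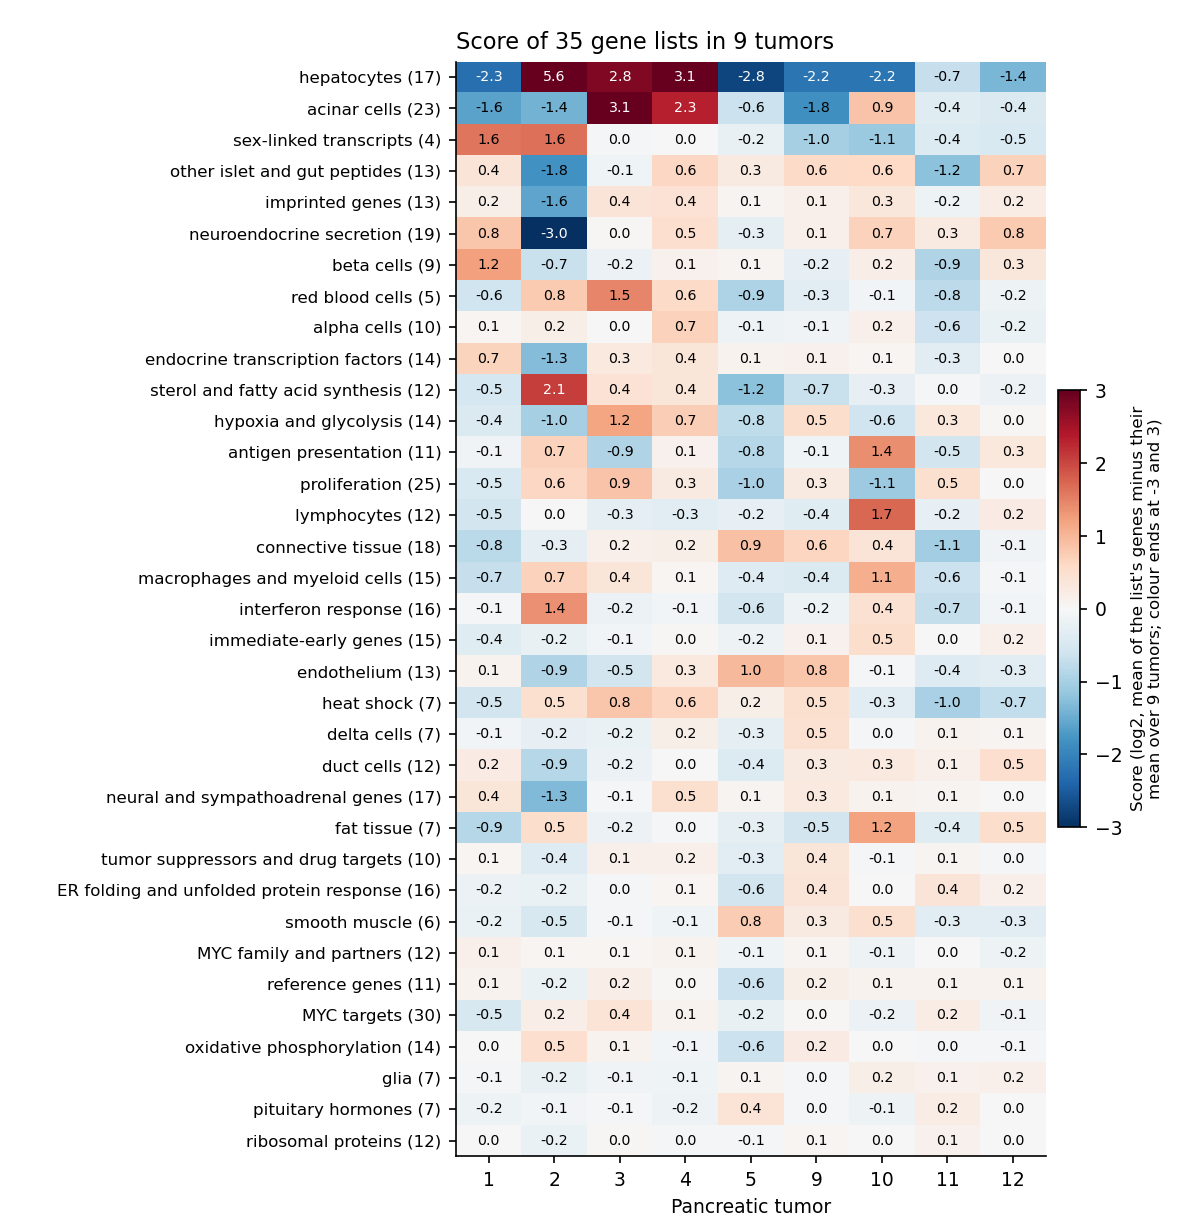
Scores of 35 gene lists (rows, number of measured genes in parentheses) in the 9 tumors (columns), as the mean over genes of the log2 signal minus the gene's mean over the 9 tumors. Colour ends at -3 and 3. The hepatocyte row reached 5.55 in tumor 2, the acinar row 3.09 in tumor 3 and the lymphocyte row 1.73 in tumor 10, while ribosomal proteins were near 0 in every tumor.

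To describe genes that varied together, the 500 genes with the largest SD were clustered by their correlation over the 9 tumors, and clusters of 15 or more genes were kept. Of the 500, 92 were above the array median in every tumor. The 500th SD and the next were both 1.64. The largest of 4 clusters held 333 genes, led by Bhmt, and contained 16 of the 17 hepatocyte genes. Its mean deviation was 5.16 in tumor 2, 1.54 in tumor 4, 1.35 in tumor 3 and between -1.51 and -1.23 in the others. A cluster of 60 genes, led by Pyy, Ppy, Ptgs2, Pcdh8, Ppp1r17 and Calb1, was lowest in tumors 11 (-2.94) and 2 (-2.14) and highest in tumors 1 (1.66) and 4 (1.52). Ptgs2 encodes the inducible cyclooxygenase and Calb1 the calcium buffer calbindin.

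Of 2 clusters with 27 genes each, one held 14 of the 23 acinar genes, and its deviation was highest in tumor 3 (4.29), before tumors 4 (3.29) and 10 (1.43). The other was led by Spock2, Cldn9, Nupr1, Ccnd2, Slc6a15 and Npy and was low in tumor 2 alone (-3.66), with values from -0.57 to 1.42 elsewhere. Spock2 encodes a matrix proteoglycan and Ccnd2 cyclin D2. The letters TATAAA were present in 21.6% of the 320 promoters found for the 333 genes and in 47.8% of 23 promoters of the acinar cluster, against 9.77% of those of measured genes. GTTAAT was present in 15.9% and 13.0%, against 5.30%, and the E-box CACGTG, to which MYC proteins bind, in 6.25% and 8.70%, against 8.72%. These shares were read after the clusters were seen and were not tested.

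The same clustering of the 500 most variable genes in the 6 tumors 1, 5 and 9 to 12 gave 7 clusters. The largest, with 133 genes, was led by Pyy, Cbln4, Resp18, Klhl13, Calb1 and Fstl5 and was lowest in tumor 11 (-2.57) and highest in tumor 1 (1.48). A cluster of 110 genes, led by Ppp1r17 and Ptgs2 and holding Meg3, Malat1, Snhg14 and Kcnq1ot1, was highest in tumor 5 (2.24). A cluster of 89 genes, led by Lbp, Alb and Cfap61 with Cpa5, Ctse and Fabp2, was highest in tumors 11 (2.05) and 12 (1.19) and held 7 hepatocyte genes. Tumor 11 was therefore at the low end of the cluster with Pyy and Resp18 and at the high end of the cluster with Alb.

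A cluster of 60 genes mixed cell types, with 10 acinar, 3 lymphocyte, 3 myeloid, 2 antigen presentation and 2 fat genes, and was highest in tumor 10 (2.59). It was led by Cela3b, Zg16, Reg3b, Scd1, Dcn and Efemp1. Of the remaining 3, a cluster of 29 genes led by Nts, Nkx2-2, Hepacam2 and Aldh1a3 was low in tumor 11 (-2.02) and high in tumors 12 (1.44), 1 (1.34) and 10 (1.14). A cluster of 27 genes led by Uty, Pcdh17 and Fbp1 was high in tumor 1 (2.76), and a cluster of 16 genes led by Cartpt, Bub1 and Cck was low in tumor 5 (-2.51). With 6 tumors, the clusters describe single arrays as much as groups of genes. The median correlation of a gene with the mean of its cluster was 0.83 to 0.91.

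**Figure D5:**
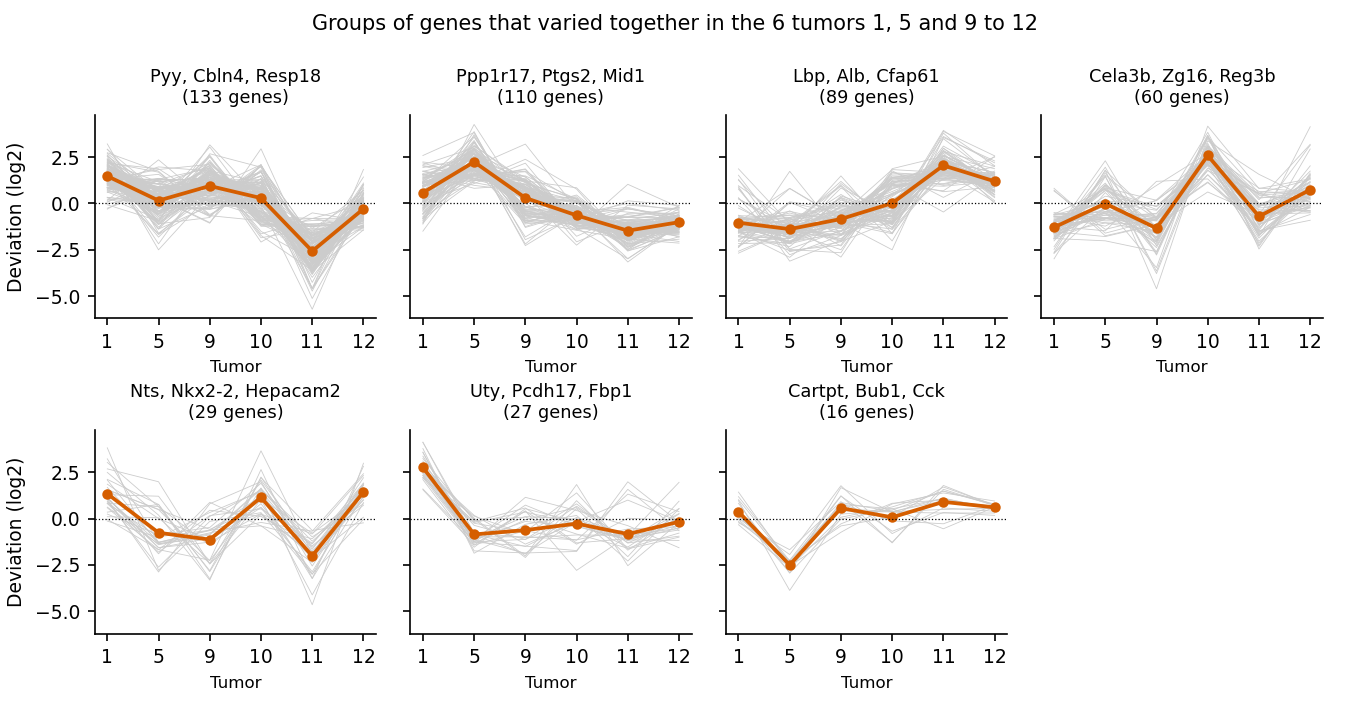
Deviation of each gene from its mean over tumors 1, 5 and 9 to 12 (log2) in 7 clusters of the 500 most variable genes of these 6 tumors. Grey lines are genes and the orange line is their mean. The cluster led by Pyy was at -2.57 in tumor 11, and the cluster led by Cela3b reached 2.59 in tumor 10.

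Pairs of genes that belong to 1 cell type or process were compared over the 9 tumors. These tests, and the fits over all probe sets below, take the tumors as independent, which is not known. Of 31 pairs tested, 10 passed an adjusted p of 0.05 for Pearson's r in a two-sided exact permutation test with Benjamini-Hochberg adjustment over the 31, and 0 did for Spearman's rho. Only 3 passed without tumor 1 or without tumor 2, 4 without tumor 3, 4, 10 or 12, and 2 without tumors 10, 11 and 12 together. Sst and Chga had r = 0.931 (p = 0.000281, adjusted p = 0.0052) and rho = 0.75 (adjusted p = 0.158) by exact permutation, and r = 0.847 without the 2 tumors farthest from the median of Sst. Mki67 and Top2a had r = 0.868 (p = 0.000502, adjusted p = 0.0052) and rho = 0.867 (adjusted p = 0.0628) by exact permutation, and r = 0.894 without the 2 farthest tumors. Neurod1 and Isl1, both transcription factors of islet cells, had r = 0.962 (adjusted p = 0.0068, exact permutation), which was 0.648 without the 2 farthest.

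Several relations of Gcg rested on tumor 2 and 1 more tumor. Gcg and Sst had r = 0.842 (adjusted p = 0.0413, exact permutation) with r = 0.418 without tumors 2 and 3. Gcg and Chga went from 0.832 to 0.221 and Chga and Chgb from 0.894 to 0.529 when the 2 farthest tumors were left out. In the same way Ins2 and Iapp went from 0.713 to -0.0956, so each of these relations rests on the tumors left out. Gcg and Ins2, hormones of different islet cells, fell less, with r = 0.781 and r = 0.691 without the 2 farthest. Their rho was 0.867 (adjusted p = 0.0628, exact permutation). Without tumor 2 alone their r was 0.624 (adjusted p = 0.254, exact permutation), so this pair did not pass there. Ppy and Pyy had r = 0.868, and 0.478 without the 2 farthest. For Alb and Apoa1 the tumors fell into separate clusters, so that no pooled r is given. Without tumors 2, 3 and 4 their r was 0.872 (p = 0.0319, adjusted p = 0.248, exact permutation).

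Without tumors 2, 3 and 4, 0 of the 31 pairs passed and 4 had an unadjusted p below 0.05 in the exact permutation test (0.0222 to 0.0319). The smallest p that the test allows with 6 tumors is 0.00278. Sst and Chga had r = 0.875, Mki67 and Top2a 0.833 and Neurod1 and Isl1 0.865. In these 6 tumors Sst ranged only from 14.87 to 15.10 (SD 0.09), near the top of the scale. Signals there can be compressed, so its r need not reflect the transcript. Among the pairs that did not pass in the 9 tumors, Sst and Hhex had r = 0.712 (adjusted p = 0.0709) and Gcg and Mki67 r = -0.617 (adjusted p = 0.165) by exact permutation. Mki67 and Mycn had r = 0.0100 (adjusted p = 0.982, exact permutation). No relation of Mki67 with mouse Mycn was detectable in 9 arrays.

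In a fit over all probe sets with limma, the slope of each on Gcg, Mki67 or Col1a1, the gene of the main fibrillar collagen, was tested with Benjamini-Hochberg adjustment. By chance about 1 in 20 of all probe sets have an unadjusted p below 0.05. Counts at that limit, here and for Gcg and Col1a1 below, are therefore not calls. With Mki67, 3 of 45036 probe sets (0.00666%) passed an adjusted p of 0.05 and 2388 had an unadjusted p below 0.05. They were Atad2, a chromatin protein, with a slope of 1.23 ± 0.12 (SE, adjusted p = 0.0429, limma), 1 probe set of B3galnt2 with 0.98 ± 0.09 (SE, adjusted p = 0.0335, limma), and 1 probe set without a single symbol with 1.20 ± 0.11 (SE, adjusted p = 0.0335, limma). The 3 other probe sets of B3galnt2, a glycosyltransferase, had slopes of -0.13, 1.05 and -0.06 and adjusted p of 0.975, 0.524 and 0.974 (limma), so its probe sets disagree. All 3 calls were lost without tumors 2, 3 and 4, without tumors 10, 11 and 12, and when limma's variance was trended and robust. When single tumors were left out, 1 probe set passed without tumor 2 and 0 without any other tumor, and the count at an unadjusted p below 0.05 was 6242 without tumor 10.

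Genes of cell division stood next in that order, with Hmmr, a spindle protein, at a slope of 0.88 and an adjusted p of 0.0557 (limma). In the proliferation list 23 of 24 genes had a positive slope on Mki67, with a median of 0.81, against 10384 of 18192 genes and a median of 0.03 over all genes. The hepatocyte list had 16 of 17 positive slopes with a median of 2.75, and the MYC targets 25 of 30 with a median of 0.17. Positive slopes on Mki67 thus prevailed in the hepatocyte list as well as in that of dividing cells. Slopes of the genes of 1 list are not independent of each other. The hepatocyte score was 5.55, 2.78 and 3.13 in tumors 2, 3 and 4 and below 0 in all others. The list slopes come from the fit with all 9 tumors, and the part of these 3 was not tested.

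With Gcg, 0 of 45036 probe sets (0%) passed in limma and 6020 had an unadjusted p below 0.05. Without tumor 2 the latter count was 1286. With a trended and robust variance 0 passed and 5879 had an unadjusted p below 0.05. The smallest p belonged to Trnp1, a nuclear protein, with a slope of 0.75 ± 0.08 (SE, adjusted p = 0.145, limma). Of the genes of neuroendocrine secretion, 18 of 19 had a positive slope on Gcg with a median of 0.66, against 8735 of 18192 genes and a median of -0.01 over all genes. Of 17 hepatocyte genes, 1 had a positive slope. Gcg and 17 of the 19 secretion genes were lowest in tumor 2, so these slopes are not independent. The part of tumor 2 in them was not tested. With Col1a1, 0 of 45035 probe sets (0%) passed in limma, 1886 had an unadjusted p below 0.05 (3879 without tumor 1), and 0 passed with a trended and robust variance. Postn, encoding the matrix protein periostin, had the smallest p, with a slope of 1.44 ± 0.15 (SE, adjusted p = 0.199, limma). Of the genes of connective tissue other than Col1a1, 16 of 17 had a positive slope on it with a median of 1.18, and all 13 endothelial genes did with a median of 0.89, against 9070 of 18192 genes.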

How the data were processed

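The deposited files hold log2 signals of 45101 probe sets per array (Affymetrix MG-430_2.0), normalized by the authors. The submitters' processing notes name Partek, without a version, and the study's methods name Partek for normalization and RMA for pre-processing in R, but not which of them gave the deposited values. No further scaling was applied. From 45101 probe sets 64 controls were removed. Of the others, 34945 had 1 gene symbol, 932 several and 9160 none, by the platform annotation. Fits were made with limma 3.58.1 under R 4.3.3, after a test on simulated data, and all else with scipy 1.17.1 and pandas 2.3.3 under Python 3.11.15. The number of arrays limits the precision.

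The members, the 35 lists (452 of 515 genes measured) and the 36 pairs (31 measured) were chosen with earlier results of these data known, and the band limits of 9 and 12 after the values were seen. Clusters used average linkage on 1 minus Pearson's r, at a height of 0.5. Named were the markers, genes the study names, the 25 highest, the 10 most stable per band, the 30 most variable, 6 leading genes per cluster, up to 5 genes per list, the genes of the pairs and the 10 smallest p per direction for Gcg, Mki67 and Col1a1. Others were chosen after their values were seen. Alternatives were quantile normalization, centring, other choices of probe set, cluster and variance, and leaving out tumors.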

Additional observations from a re-analysis of the deposited data

Results flagged for a closer look

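For 35 list scores and 60 genes, the lowest and the highest tumor were compared with the rest by the gap to the nearest tumor over the whole range, with Dixon's critical value for 9 tumors as the limit. Of 95 items, 16 had a tumor past it (6 scores and 10 genes), of which 12 were in tumor 2 and 10 of these at the low end. Chance flags about 1 in 20 groups. The lists and genes were chosen with earlier results of these data known, and some genes for their spread. That share is thus no reference for these items, which are also not independent.

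Tumor 2 was far below the others for the scores of neuroendocrine secretion (-2.98), of neural and sympathoadrenal genes (-1.32) and of imprinted genes (-1.59). For the score of sterol and fatty acid synthesis (2.07) it was above the others, just past the limit with a gap over the range of 0.496. Among genes it was far below the others for Sst (13.65), Iapp (12.88), Chgb (11.59), Neurod1 (7.52), Isl1 (8.76) and Krt7, a keratin of ducts (7.17). For Chga (9.58) it was only just past the limit, with a gap over the range of 0.504. It was above the others for Igf2, encoding insulin-like growth factor 2 (12.33, gap over the range 0.544). Its hepatocyte score was 5.55.

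Tumor 10 was far above the others for the lymphocyte score (1.73) and for Ms4a1, encoding the B cell antigen CD20 (8.01). Tumor 1 was far above the others for Slc30a8, the zinc carrier of insulin granules (10.92, against 5.61 to 6.29). Tumor 5 was below the others for the score of reference genes (-0.63), just past the limit with a gap over the range of 0.507, and its 3′ excess of Actb was 3.48. The part of these accompanying values in the results was not tested.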

How the results depend on the processing

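Of the 30 stable genes, 13 were shared with the list after quantile normalization, 16 after median centring, 12 with the mean of a gene's probe sets, 8 by median absolute deviation, 12 without tumors 10, 11 and 12, 18 without tumors 3 and 4, 11 without tumors 2, 3 and 4, and 15 to 24 when single tumors were left out (15 without tumor 5). Of the 25 highest genes, 13 were shared with the mean of probe sets. Of the 30 variable genes, 3 were shared without tumors 2, 3 and 4, 5 by median absolute deviation and 1 among genes above the array median in all 9. Genes with an SD over 1 numbered 1035 without tumors 2, 3 and 4 and 1034 (without tumor 2) to 2344 (without tumor 4) when single tumors were left out. The largest cluster held 133 genes without tumors 2, 3 and 4, 196 from 250 genes, 161 with complete linkage and 212 (without tumor 2) to 361 without single tumors. Of 31 pairs, 2 passed without tumors 10, 11 and 12, 3 without tumors 3 and 4, 0 without tumors 2, 3 and 4, 0 by rho, and 3 (without tumor 1 or tumor 2) to 11 (without tumor 5) without single tumors. For Gcg 0 probe sets passed, or 3 without tumor 3. For Mki67 0 of the 3 passed after quantile normalization, with a trended and robust variance, without tumors 10, 11 and 12, without tumors 3 and 4, without tumors 2, 3 and 4 or with the hepatocyte score as a covariate, and 0 or 1 without single tumors. For Col1a1 0 passed in each. None of the 10 pairs past the threshold changed sign under the alternatives named so far. Without the 2 tumors farthest from the median of the first gene, 9 of the 10 kept their sign. Ins2 and Iapp did not (r = -0.0956). Some pairs that were not past the threshold changed sign under the alternatives. With the mean of probe sets r was -0.107 for Mki67 and Mycn, -0.138 for Mycn and Ncl, 0.300 for Col1a1 and Ptprc and -0.269 for Hspa5 and Ddit3. Without tumors 10, 11 and 12 it was -0.962 for Mycn and Ncl and -0.106 for Mycn and Odc1. Without tumors 2, 3 and 4 it was 0.182 for Gcg and Ttr, -0.0065 for Chga and Scg2, 0.012 for Mki67 and Ncl, 0.144 for Col1a1 and Ptprc, -0.574 for Meg3 and Rian and -0.531 for Hmgcs1 and Sqle. Without single tumors r ran from -0.140 to 0.430 for Mki67 and Mycn, -0.0638 to 0.315 for Mycn and Odc1, -0.465 to 0.180 for Col1a1 and Ptprc, -0.316 to 0.0797 for Col1a1 and Mki67, -0.255 to 0.561 for Cpa1 and Gcg, -0.587 to 0.805 for Meg3 and Rian, -0.0918 to 0.412 for Hmgcs1 and Sqle, -0.584 to 0.439 for Hspa5 and Ddit3, -0.0947 to 0.676 for Col1a1 and Pecam1 and -0.0047 to 0.661 for Ptprc and Cd74. Leaving out tumors 2, 3 and 4 and the covariate were chosen after seeing the data. No paired analysis was possible because all tumors belong to 1 group.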

Other observations

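The spiked controls differed between arrays. The 12 probe sets of poly-A spikes, added to the RNA before labelling, had a mean of 10.93 in tumor 5 and 7.91 to 9.44 in the others. The 9 probe sets of hybridization spikes had means of 12.22, 12.57, 11.82 and 12.11 in tumors 5, 10, 11 and 12, and 10.79 to 11.49 in the others. The mean signal of an array was 5.97 to 5.98 in tumors 10, 11 and 12 and 6.06 to 6.09 in the others.

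In a principal component analysis of all genes, the first component held 46.5% of the variance and tumors 2, 3 and 4 scored 160.9, 22.9 and 15.5, and the second held 17.4% and tumors 11, 12 and 10 scored 70.2, 42.1 and 28.4. Without tumors 2, 3 and 4 the first component held 40.7%, with tumor 11 at 66.5 and tumor 5 at -53.3.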
